A study of Homo sapiens with 6 samples.

Results

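The genes described here are 10 components of the Notch pathway, namely the receptors *NOTCH1*, *NOTCH2* and *NOTCH3*, the ligands *JAG1*, *JAG2* and *DLL1*, and the target genes *HES1*, *HES4*, *HEY1* and *NRARP*. They were taken by name from the 62703 genes of the deposited expression table, with earlier results of these data known, and all 10 passed the low-count filter that left 15179 genes for testing. The samples are PANC-1 cells, an epithelial line from a human pancreatic ductal carcinoma, profiled by stranded mRNA-seq to find which genes change when the super-enhancer of *DKK1* (DKK1-SE) loses its component enhancer e1. DKK1-SE+/+ cells are the PANC-1 cells labelled as wild type and control. DKK1-SE-/- cells carry a homozygous CRISPR/Cas9 deletion of e1. Each group has 3 libraries that the sample labels name as biological replicates, and both groups were grown in DMEM with serum. The study obtained 1 homozygous DKK1-SE-/- clone, so the effect of the deletion and other differences between that clone and the parental cells cannot be told apart. The labels do not say whether the replicates were separate cultures, and the tests then measure the spread between these libraries.

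Notch receptors are single-pass membrane proteins that are activated by Jagged or Delta-like ligands on a neighbouring cell. Ligand binding exposes the receptor to cleavage by ADAM proteases and then by gamma-secretase, and the released intracellular domain enters the nucleus, where it binds RBPJ and Mastermind-like coactivators and turns on genes such as those of the HES and HEY repressor families. In the exocrine pancreas the pathway is known for restraining acinar differentiation in the embryo, and it is reactivated in ductal metaplasia and ductal carcinoma.

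In the order of the replicate numbers, which is kept for all values that follow, the expected counts of the DKK1-SE+/+ libraries summed to 21822314, 16475810 and 18803154 and those of the DKK1-SE-/- libraries to 17359835, 20098086 and 17804764. *DKK1*, the gene that gives the super-enhancer its name, had a TPM (a transcript level corrected for library size and gene length) of 229, 246 and 199 in the DKK1-SE+/+ replicates and of 66.8, 79.8 and 82.7 in the DKK1-SE-/- replicates. The groups did not overlap, and *DKK1* was lower in each library labelled as deleted. The epithelial keratins *KRT8* and *KRT18* had a TPM of 842 or more in every library, and the 6 ductal and epithelial markers summed to 1847, 1888 and 1925 in DKK1-SE+/+ and to 3147, 3090 and 2662 in DKK1-SE-/- cells. *KRT8* was the most abundant of them in each library, and *KRT19* rose with a log2 fold change of 1.83 (edgeR adjusted p = 1.4e-05). *EPCAM* and *CDH1* were low in both groups. *EPCAM* had a TPM of 4.81, 3.91 and 3.80 in DKK1-SE+/+ and of 1.70, 3.27 and 2.78 in DKK1-SE-/- cells and was called as lower (log2 fold change -0.67, edgeR adjusted p = 0.0395), and *CDH1* (0.42 to 2.67 over the 6 libraries) was not called (edgeR adjusted p = 0.307). The acinar markers *CELA3A* and *AMY2A* were at 0 in the 6 libraries, and *PRSS1* and *CPA1* did not exceed 0.2. Of the endothelial markers, *PECAM1*, *CDH5* and *VWF* did not exceed 0.18, while *KDR* fell from between 2.08 and 2.51 to between 0.33 and 0.55. Of the fibroblast markers, *COL1A1* was the most abundant in DKK1-SE+/+ cells and fell from between 91.0 and 103 to between 8.97 and 16.1, whereas *COL1A2* was at 0 in the 6 libraries, and the list of 6 summed to 93.9, 104 and 105 in DKK1-SE+/+ and to 15.96, 12.91 and 20.24 in DKK1-SE-/- cells. *COL3A1*, of the same list, went the other way, from 1.69, 1.54 and 1.5 to 3.62, 3.61 and 4.07 (log2 fold change 1.42, edgeR adjusted p = 3.68e-05). Of the leukocyte markers, *CD68* was at 40.9 to 46.5 in DKK1-SE+/+ and at 64.8 to 67.9 in DKK1-SE-/- cells, and *PTPRC* and *CD3E* did not exceed 0.06. The part of these marker differences in the results for the Notch genes was not tested.

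Of the 10 Notch genes, *JAG1* was lower and *NOTCH1* and *HEY1* were higher in DKK1-SE-/- cells at an adjusted p-value under 0.05. The values of the other 7 genes did not pass this threshold. The call was made with edgeR's quasi-likelihood test, adjusted by the Benjamini-Hochberg method over the 15179 tested genes. In the same test 39.3% of all tested genes were called, 19.8% as higher and 19.5% as lower, so that 3 of 10 called genes, 2 higher and 1 lower, is a share near the background. None of the 10 was a DEG, for which edgeR had to give a log2 fold change of 1.2 or more in either direction with an unadjusted p-value under 0.05, and DESeq2 also gave 0, while 4 of the 10 had an unadjusted p-value under 0.05 in edgeR. The DEG rule took 8.66% of all tested genes, 4.96% as higher and 3.70% as lower. The study gives its limit as an absolute fold change, and the scale was chosen here. With the same limit on the linear scale, 4 of the 10 genes and 47.6% of all tested genes are DEGs. In CPM (counts scaled to the library size multiplied by its TMM factor, which corrects for the composition of the library, but not to gene length), the values of the groups did not overlap for 5 of the 10 genes (*NOTCH1*, *NOTCH2*, *NOTCH3*, *JAG1* and *HEY1*), against 51.9% of all tested genes. By library size alone they did not overlap for 4 genes (*NOTCH1*, *JAG1*, *HES1* and *HEY1*), against 51.4% of all tested genes. The median log2 fold change of the 10 genes was 0.14 and the median of its absolute value was 0.47, against 0.03 and 0.38 over all tested genes.

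**Figure D1:**
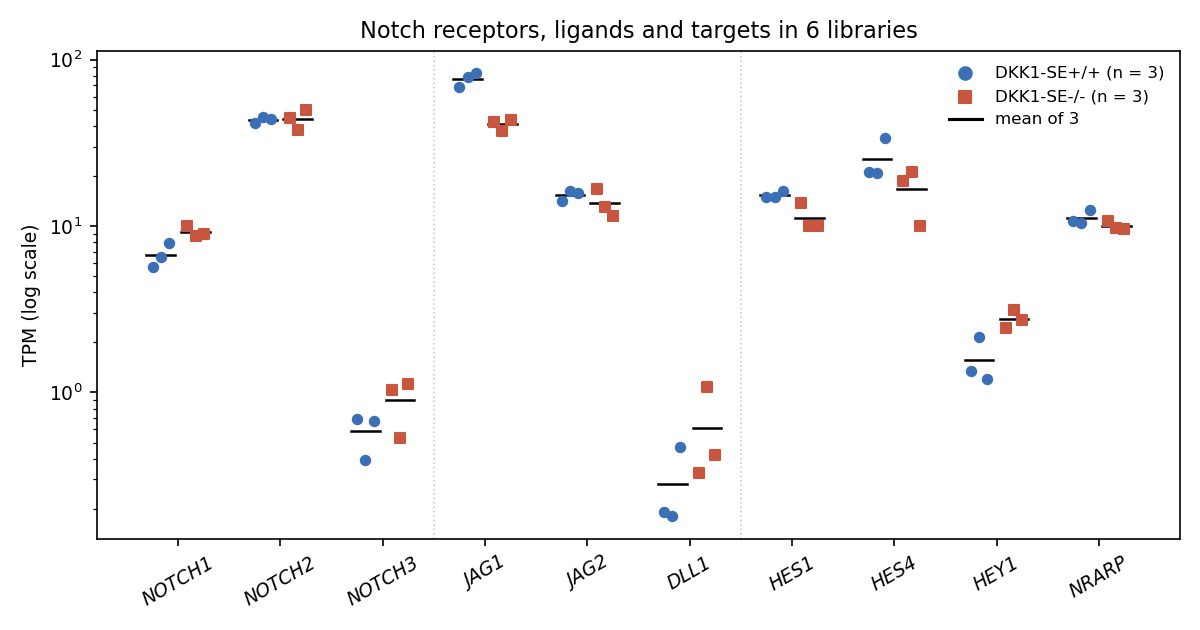
TPM (log scale) of the 10 Notch genes in each of the 6 libraries, with DKK1-SE+/+ libraries as circles, DKK1-SE-/- libraries as squares and the mean of each group as a bar. The *JAG1* values lie between 68.7 and 83.3 in DKK1-SE+/+ cells and between 37.1 and 43.7 in DKK1-SE-/- cells.

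The levels of the 10 genes covered a wide range. By mean TPM in DKK1-SE+/+ cells the order was *JAG1* (76.8), *NOTCH2* (43.6), *HES4* (25.3), *JAG2* (15.4), *HES1* (15.3), *NRARP* (11.2), *NOTCH1* (6.68), *HEY1* (1.57), *NOTCH3* (0.583) and *DLL1* (0.280). The ranges of *JAG2* and *HES1* overlapped, as did those of *NOTCH3* and *DLL1*, and the other neighbours in this order were separated in every library. In DKK1-SE-/- cells *NOTCH2* (44.2) stood above *JAG1* (41.01), and their ranges, 38.0 to 50.2 and 37.1 to 43.7, overlapped. The order of the other 8 genes was the same as in DKK1-SE+/+ cells, and from *HES4* to *NOTCH1*, and again for *NOTCH3* and *DLL1*, the range of each gene overlapped that of the next.

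Among the receptors, *NOTCH1* rose and *NOTCH2*, the most abundant of them, did not pass the test. *NOTCH1* (ENSG00000148400, chr9:136494433-136546048 of hg38, minus strand), the receptor whose activating mutations are known from T-cell leukaemia, had 809, 683 and 933 expected counts in the DKK1-SE+/+ replicates and 1219, 1278 and 1059 in the DKK1-SE-/- replicates. Its TPM was 5.66, 6.50 and 7.89 in the DKK1-SE+/+ and 9.99, 8.77 and 8.90 in the DKK1-SE-/- replicates. Every DKK1-SE-/- library was above every DKK1-SE+/+ library on both scales, with the smallest gap in TPM between DKK1-SE+/+ replicate 3 and DKK1-SE-/- replicate 2. The log2 fold change was 0.67 (standard error 0.14, 95% interval 0.36 to 0.98), a 1.59-fold increase (edgeR adjusted p = 0.00361). With the GC-content offset described below it was 0.34, and the call was kept. On log2(TPM + 1) the difference was 0.42 and was not called (limma adjusted p = 0.0921, with a range of 2.1e-05 to 0.15 over the 16 alternatives), and 13 of these alternatives made the call.

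*NOTCH2* (ENSG00000134250, chr1:119911553-120100779, minus strand) had a TPM of 41.7, 45.2 and 43.8 in the DKK1-SE+/+ replicates and of 44.4, 38.0 and 50.2 in the DKK1-SE-/- replicates. The DKK1-SE-/- libraries lay on both sides of the DKK1-SE+/+ range in TPM, whereas in CPM they lay just above it (357.6 to 416.5 against 333.3 to 356.9), and by library size alone the groups overlapped through DKK1-SE-/- replicate 2. Its log2 fold change was 0.18 (standard error 0.10, 95% interval -0.04 to 0.40, edgeR adjusted p = 0.182). The expected counts of *NOTCH2* were not whole numbers. Reads from sequence that it shares with its shorter paralogs *NOTCH2NLA*, *NOTCH2NLB*, *NOTCH2NLC* and *NOTCH2NLR* can be divided between them. These paralogs had log2 fold changes of 0.08, 0.30, -0.19 and -0.74, none of them called (edgeR adjusted p of 0.678, 0.258, 0.349 and 0.337). With the same offset *NOTCH2NLA* (0.38, edgeR adjusted p = 0.0065, with a range up to 0.954 over the alternatives) and *NOTCH2NLB* (0.59, edgeR adjusted p = 0.0215, with a range of 0.00725 to 0.839) were called as higher. *NOTCH2NLA* was the most abundant of them, with a TPM of 9.92 to 11.9 over the 6 libraries, and *NOTCH2NLR* had 3.02 counts in DKK1-SE-/- replicate 2 against 26.6 or more in each of the other libraries.

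*NOTCH3* (ENSG00000074181, chr19:15159038-15200995, minus strand), known for its expression in vascular smooth muscle, was low, with 77, 42 and 62 counts in the DKK1-SE+/+ and 88, 69 and 78 counts in the DKK1-SE-/- replicates. In CPM each DKK1-SE-/- library was above each DKK1-SE+/+ library by the narrow margin of 3.52 against 3.40, while the groups overlapped by library size alone and in TPM (0.39 to 0.69 and 0.53 to 1.13). The effective lengths implied by counts and TPM were 0.769 to 1.32 times the median of the libraries, so the TPM values of *NOTCH3* do not share 1 length. The log2 fold change of 0.52 (standard error 0.23, 95% interval 0.01 to 1.04) did not pass after adjustment (edgeR adjusted p = 0.0973), and it was 0.34 without DKK1-SE-/- replicate 1 and 0.67 without DKK1-SE-/- replicate 2. *NOTCH4*, the remaining receptor, had a TPM of 0.98 to 1.41 over the 6 libraries, and its log2 fold change of 0.20 was not called (edgeR adjusted p = 0.642). In TPM, which allows levels of different genes to be compared, *NOTCH2* made up 85.1%, 84.6% and 81.4% of the sum of *NOTCH1* to *NOTCH4* in the DKK1-SE+/+ replicates and 78.3%, 78.7% and 81.8% in the DKK1-SE-/- replicates. The share of *NOTCH1* was 11.5%, 12.2% and 14.7% in the DKK1-SE+/+ and 17.6%, 18.2% and 14.5% in the DKK1-SE-/- replicates. Both shares overlapped between the groups through DKK1-SE+/+ replicate 3 and DKK1-SE-/- replicate 3.

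Among the ligands, *JAG1* fell in DKK1-SE-/- cells, and *JAG2* and *DLL1* did not pass the test. *JAG1* (ENSG00000101384, chr20:10637684-10673999, minus strand), the ligand that is mutated in Alagille syndrome, had 6422, 5381 and 6163 expected counts in the DKK1-SE+/+ replicates and 3167, 3330 and 3254 in the DKK1-SE-/- replicates. Its TPM was 68.7, 78.5 and 83.3 in the DKK1-SE+/+ replicates and 42.2, 37.1 and 43.7 in the DKK1-SE-/- replicates. The DKK1-SE-/- libraries were close to one another and each lay far below the lowest DKK1-SE+/+ library. On the log2 scale the change was -0.77 (standard error 0.10, 95% interval -0.99 to -0.54), so that *JAG1* fell by 41.2% (edgeR adjusted p = 0.000282). In RNA from whole cultures, fewer cells with the transcript and less transcript per cell cannot be told apart. *JAG1* was the only one of the 10 genes called in all 16 alternatives, with log2 fold changes of -0.90 to -0.72, and 21.2% of all tested genes had a larger absolute change. An antisense long non-coding RNA gene, ENSG00000270792, overlaps *JAG1* and had at most 4.32 counts in a library. Of the 10 Notch genes, 8 have an entry in the RefSeq promoter table (build GRCh38.p14), and the *JAG1* entry is shown because *JAG1* had the smallest p-value of the 10. The 250 bases before its start (chr20:10674000-10674249, minus strand, 5′ to 3′) hold neither TGGGAA, the core that RBPJ is known to bind, nor TGANTCA, the motif of AP-1, on either strand.
JAG1: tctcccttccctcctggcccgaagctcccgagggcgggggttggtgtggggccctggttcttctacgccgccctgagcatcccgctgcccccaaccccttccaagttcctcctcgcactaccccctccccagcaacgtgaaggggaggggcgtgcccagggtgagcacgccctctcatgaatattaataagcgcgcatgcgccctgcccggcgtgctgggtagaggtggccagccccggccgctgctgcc
The same search found TGANTCA in none of the 8 promoters. Over all 35116 promoters of the table, windows of the same length held TGGGAA in 20.9% and TGANTCA in 6.57%.

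*JAG2* (ENSG00000184916, chr14:105140982-105168824, minus strand) had a TPM of 14.2, 16.3 and 15.8 in the DKK1-SE+/+ replicates and of 16.6, 13.0 and 11.4 in the DKK1-SE-/- replicates. The DKK1-SE-/- libraries spread over a wider range, which contained all the DKK1-SE+/+ values. The effective lengths of *JAG2* implied by counts and TPM were 0.853 to 1.095 times the median of the libraries, so its TPM values do not share 1 length. The log2 fold change of *JAG2* was 0.11 (standard error 0.15, 95% interval -0.23 to 0.44, edgeR adjusted p = 0.613). Its sign turned in 6 of the 16 alternatives, among them the fit without DKK1-SE-/- replicate 1 (-0.05). *DLL1* (ENSG00000198719, chr6:170282206-170306565, minus strand), a Delta-like ligand, was barely expressed, with 12, 8 and 21 counts in the DKK1-SE+/+ and 17, 28 and 21 counts in the DKK1-SE-/- replicates. The groups overlapped through DKK1-SE+/+ replicate 3, and the log2 fold change of 0.79 had a 95% interval of -0.11 to 1.69 (edgeR adjusted p = 0.149). Without DKK1-SE+/+ replicate 3, *DLL1* had a log2 fold change of 1.25 and passed the DEG rule, though not the adjusted p (0.0625, the lowest of a range up to 0.464). The span of *DLL1* overlaps *FAM120B* on the opposite strand, which had 659 to 1441 counts and fell with a log2 fold change of -0.60 (edgeR adjusted p = 0.00107). Whether the counting used strand is not given in the sources used here, so reads of these overlapping genes may have been divided between them. The ratio of counts to TPM implied an effective length of *DLL1* in DKK1-SE-/- replicate 2 (TPM of 1.08) that was 0.428 times the median of the libraries, so the TPM values of *DLL1* do not share 1 length.

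The summed TPM of the canonical ligands *JAG1*, *JAG2*, *DLL1*, *DLL3* and *DLL4* was 132, 140 and 154 in the DKK1-SE+/+ replicates and 101, 97.7 and 85.2 in the DKK1-SE-/- replicates. In TPM every DKK1-SE-/- sum was below every DKK1-SE+/+ sum. On log2(TPM + 1) the median difference of all tested genes was also below 0 (-0.08). *JAG1* accounted for 52.1%, 56.2% and 54.1% of the sum in the DKK1-SE+/+ and for 41.7%, 38.0% and 51.3% in the DKK1-SE-/- replicates, so that its share was lower in each DKK1-SE-/- library. *DLL3*, a divergent ligand that is known to act on Notch inside the producing cell, was singled out after its values were seen, because it came second to *JAG1* in DKK1-SE+/+ cells. Its TPM was 48.1, 44.4 and 53.8 in the DKK1-SE+/+ and 39.0, 44.2 and 27.3 in the DKK1-SE-/- replicates. Each DKK1-SE-/- library was below each DKK1-SE+/+ library in TPM, the closest pair by 0.2, and the groups overlapped in CPM, where the log2 fold change was -0.22 (edgeR adjusted p = 0.375). With the GC-content offset *DLL3* was called as lower (-0.60, edgeR adjusted p = 0.00204, with a range of 0.00176 to 0.854 over the alternatives). *DLL4*, the ligand of sprouting endothelium, rose from a TPM of 0.68, 0.32 and 0.66 in the DKK1-SE+/+ to 3.04, 2.17 and 2.37 in the DKK1-SE-/- replicates. The DKK1-SE-/- values were several times every DKK1-SE+/+ value, with a log2 fold change of 2.33 (standard error 0.29, edgeR adjusted p = 0.000164). *DNER*, a ligand-like protein, was also called as higher (0.73). *DLL4* made up 3.002% or less of the ligand sum in every library.

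Among the target genes, *HEY1* rose, and *HES1*, *HES4* and *NRARP* did not pass the test. The promoters of *HES1* and *HES4* are shown because they are the only ones of the 8 matched promoters that hold the RBPJ core TGGGAA, printed in capitals. In *HES1* (chr3:194135898-194136147, plus strand) the core occurs at 84 to 79 and again at 70 to 65 bases before the start, in the same orientation. In *HES4* (chr1:1000158-1000347, minus strand, from 250 to 61 bases before the start) it occurs once, at 76 to 71 bases before the start of the RefSeq entry. That start lies 75 bases inside the span of *HES4* given below, so that 5 of the 6 bases of the core are within this span. Both sequences are from RefSeq, build GRCh38.p14, and read 5′ to 3′.
HES1: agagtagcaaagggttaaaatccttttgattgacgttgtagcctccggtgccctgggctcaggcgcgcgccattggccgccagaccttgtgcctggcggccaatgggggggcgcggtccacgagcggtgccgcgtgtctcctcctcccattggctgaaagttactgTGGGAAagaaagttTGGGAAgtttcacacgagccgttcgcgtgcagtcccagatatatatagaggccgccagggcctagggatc
HES4: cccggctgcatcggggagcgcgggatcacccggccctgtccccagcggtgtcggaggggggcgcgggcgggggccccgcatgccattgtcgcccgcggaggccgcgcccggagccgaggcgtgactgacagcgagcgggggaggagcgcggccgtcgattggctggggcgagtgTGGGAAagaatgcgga
A match of these letters is a description of the window and was not tested for binding.

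*HES1* (ENSG00000114315, chr3:194136148-194138732, plus strand), a basic helix-loop-helix repressor and a direct Notch target, had 335, 246 and 306 counts in the DKK1-SE+/+ and 257, 225 and 181 counts in the DKK1-SE-/- replicates. Its TPM was 14.99, 14.86 and 16.19 in the DKK1-SE+/+ and 13.74, 9.99 and 10.05 in the DKK1-SE-/- replicates. In TPM each DKK1-SE-/- library was below each DKK1-SE+/+ library, and DKK1-SE-/- replicate 1 was the closest to them. In CPM the groups overlapped through that library, though not by library size alone. The log2 fold change was -0.29 (standard error 0.17, 95% interval -0.66 to 0.09, edgeR adjusted p = 0.205). Without DKK1-SE-/- replicate 1 it was -0.51 and was called (edgeR adjusted p = 0.0157, with a range up to 0.416 over the alternatives), and without DKK1-SE-/- replicate 3 it was -0.18 and was not called. *HES4* (ENSG00000188290, chr1:998962-1000172, minus strand), a repressor of the same family, had a TPM of 21.3, 20.9 and 33.8 in the DKK1-SE+/+ and of 18.7, 21.0 and 10.1 in the DKK1-SE-/- replicates. It was highest in DKK1-SE+/+ replicate 3 and lowest in DKK1-SE-/- replicate 3, and the remaining libraries of both groups lay close together. The log2 fold change of -0.43 was not called (standard error 0.28, 95% interval -1.04 to 0.19, edgeR adjusted p = 0.251). It was -0.19 without DKK1-SE+/+ replicate 3 and -0.16 without DKK1-SE-/- replicate 3, and it was -0.97 and called as lower with the GC-content offset described below.

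*HEY1* (ENSG00000164683), a repressor of the Hairy-related family, was expressed at a low level, with 46, 49 and 32 counts in the DKK1-SE+/+ replicates and 70, 89 and 68 counts in the DKK1-SE-/- replicates. Its TPM was 1.34, 2.16 and 1.2 in the DKK1-SE+/+ and 2.45, 3.11 and 2.73 in the DKK1-SE-/- replicates. Every DKK1-SE-/- library was above every DKK1-SE+/+ library on both scales, and DKK1-SE+/+ replicate 2 was the closest to the other group. edgeR gave a log2 fold change of 0.94 (standard error 0.25, 95% interval 0.38 to 1.49), a 1.92-fold increase (edgeR adjusted p = 0.0131). The call was made in 12 of 16 alternatives, over which the adjusted p ranged from 0.00407 to 0.209. Without DKK1-SE+/+ replicate 1 the log2 fold change was 0.85 (edgeR adjusted p = 0.0545) and without DKK1-SE+/+ replicate 3 it was 0.77 (edgeR adjusted p = 0.0538), and neither fit called it. *NRARP* (ENSG00000198435, chr9:137299631-137302271, minus strand), a Notch target whose product acts back on the Notch transcription complex, had a TPM of 10.8, 10.4 and 12.4 in the DKK1-SE+/+ and of 10.7, 9.77 and 9.66 in the DKK1-SE-/- replicates. The groups overlapped, and the log2 fold change was 0.00 (standard error 0.14, 95% interval -0.30 to 0.30, edgeR adjusted p = 0.991). Its sign was negative in 13 of the 16 alternatives.

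Fold changes in this comparison varied with the GC content of the transcript, and the Notch genes are mostly GC-rich. Across 15167 tested genes with a GC content, which are not independent replicates, Spearman's rho of the log2 fold change with GC content was 0.40, and the median log2 fold change went from -0.43 in the lowest to 0.34 in the highest of 10 equal bins of GC content. Of the 10 Notch genes, 9 lie above the median GC content of 48.2%. *HES4* is the richest at 73.9%, and *HEY1*, at 45.0%, is the exception. A GC-content offset for each library left a rho of -0.01 over the same genes. It was fitted to the deviation of each library from the mean of all 6 libraries. A rho near 0 therefore follows from the fit, which also takes out any group difference that varies with GC content.

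With the offset, *NOTCH1* was higher by a log2 fold change of 0.34 and kept its call (edgeR adjusted p = 0.0104), a smaller change than the 0.67 without it. *JAG1* (-0.87, edgeR adjusted p = 2.2e-05) and *HEY1* (1.01, edgeR adjusted p = 0.00692) were changed little. The remaining targets and *JAG2* were called as lower. Their log2 fold changes were -0.97 for *HES4* (edgeR adjusted p = 0.000719), -0.40 for *HES1* (0.0492), -0.26 for *NRARP* (0.0352) and -0.24 for *JAG2* (0.0335). Over the alternatives the adjusted p ranged from 0.000719 to 0.652 for *HES4*, from 0.0157 to 0.416 for *HES1*, from 0.0352 to 0.996 for *NRARP* and from 0.0335 to 0.97 for *JAG2*. *NOTCH2* (0.08), *NOTCH3* (0.20) and *DLL1* (0.54) were not called. In this fit 7 of the 10 genes were called, against 41.1% of all genes. The part of GC content in the differences without the offset, beyond these values, was not tested.

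**Figure D2:**
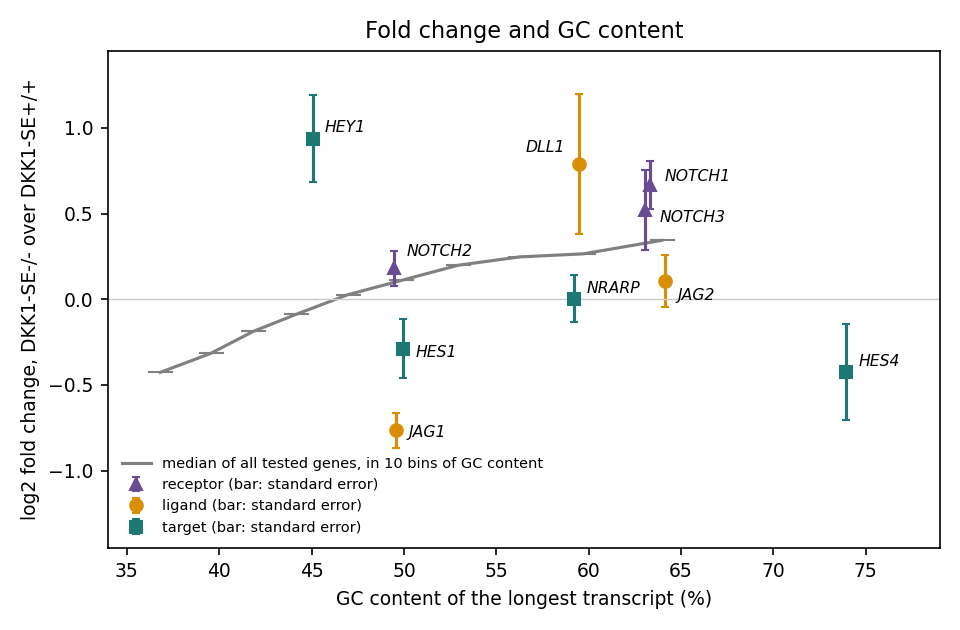
Log2 fold change against GC content of the longest transcript (%), with the median of all tested genes in 10 bins of GC content as a line and the 10 Notch genes as points with their standard error. The line climbs from -0.43 to 0.34. Of the 10 genes, *JAG1* and *HES4* lie farthest below it and *HEY1* farthest above it, and others such as *DLL1*, *NOTCH1* and *HES1* also lie off it.

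**Figure D3:**
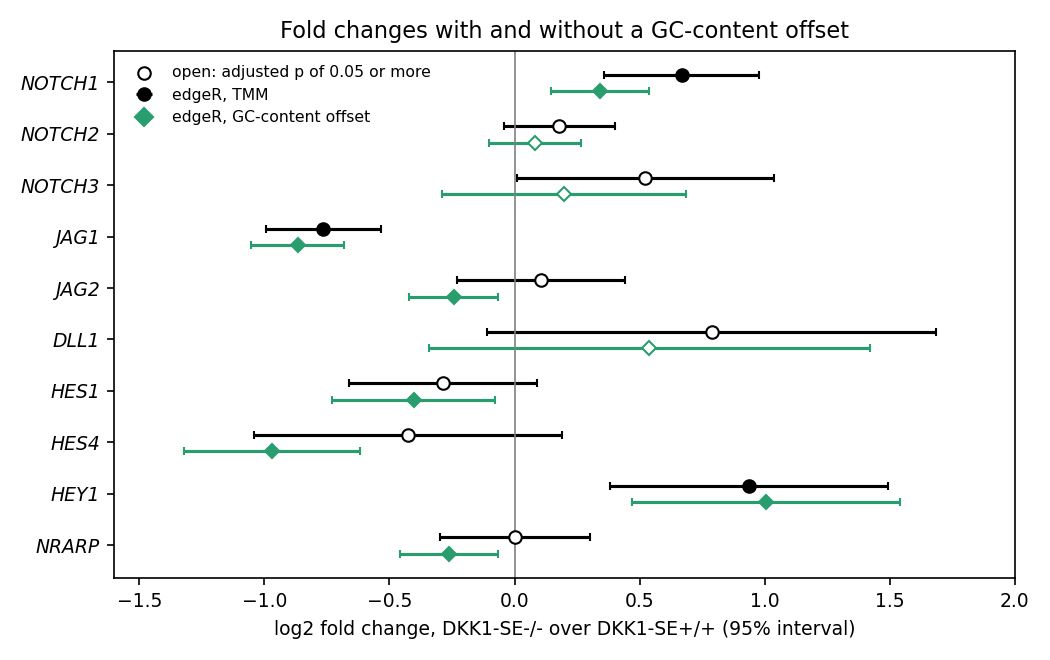
Log2 fold change of the 10 Notch genes with its 95% interval, from edgeR with TMM normalization (circles) and with a GC-content offset (diamonds), where filled symbols have an adjusted p-value under 0.05. *JAG1*, *NOTCH1* and *HEY1* are filled in both fits, and *HES4*, *HES1*, *NRARP* and *JAG2* with the offset alone.

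The balance of calls differed between the fits. Of the genes called over the whole table, 50.45% were higher in DKK1-SE-/- cells with TMM, 43.5% with library size alone and 35.8% with limma on log2(TPM + 1). In the limma fit the median log2 difference of all tested genes was -0.08 in place of 0.03. The limma fit changed both the unit and the test, and their parts were not tested. In that fit *JAG1* (-0.89, limma adjusted p = 0.00105) and *HEY1* (0.57, limma adjusted p = 0.0495) were called. *HEY1* was not called by limma with 0.1 added (adjusted p = 0.0627) or without a filter (adjusted p = 0.209). The log2 differences of *JAG2* (-0.18) and *NRARP* (-0.14) on log2(TPM + 1) were below 0.

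Beyond the 10 genes, a list of 67 further pathway genes held 59 that were tested, and 23 of these were called in edgeR, 14 as higher and 9 as lower. Their share was near the 39.3% of all tested genes, and their median log2 fold change was 0.13. Without DKK1-SE+/+ replicate 2, DKK1-SE+/+ replicate 3 or DKK1-SE-/- replicate 2, 12, 15 and 15 of them were called, against 25.9%, 30.1% and 29.9% of all genes tested in these fits. The list held 4 DEGs, *DLL4*, *DTX3L* and *HES2* as higher and *MAML2* as lower, which is 6.78% of the 59 against 8.66% of all tested genes. *HES2*, a further member of the HES family, had a TPM of 5.43, 3.05 and 5.47 in the DKK1-SE+/+ and of 15.8, 16.6 and 10.1 in the DKK1-SE-/- replicates. Every DKK1-SE-/- library was well above the DKK1-SE+/+ range, with a log2 fold change of 1.97 (standard error 0.15, edgeR adjusted p = 6.56e-06). *MAML2*, a Mastermind-like coactivator of the Notch nuclear complex, had a TPM of 3.77, 3.22 and 3.62 in the DKK1-SE+/+ and of 0.63, 1.06 and 1.07 in the DKK1-SE-/- replicates. Each DKK1-SE-/- library was far below each DKK1-SE+/+ library, and the log2 fold change was -2.01 (standard error 0.22, edgeR adjusted p = 6.75e-05). Its paralogs *MAML1* (0.02) and *MAML3* (0.29) and the DNA-binding partner *RBPJ* (-0.24) were not called, and were looked up after the value of *MAML2* was seen. *DTX3L*, a Deltex-like ubiquitin ligase, rose from a TPM of 2.35, 3.01 and 2.61 to 5.33, 5.37 and 8.01, a log2 fold change of 1.37 (standard error 0.16, edgeR adjusted p = 8.76e-05) with no overlap between the groups.

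Of the 3 tested ubiquitin ligases that act on ligands, *MIB1* and *NEURL1B* fell and *MIB2* was not called. *MIB1*, which drives ligand endocytosis, had a TPM of 8.80, 9.25 and 7.59 in the DKK1-SE+/+ and of 3.01, 4.83 and 5.09 in the DKK1-SE-/- replicates. The groups did not overlap, with a log2 fold change of -0.81 (edgeR adjusted p = 0.00152) that was -0.49 with the GC-content offset. Of the 5 glycosyltransferases of the receptor, *LFNG*, *POFUT1* and *POGLUT1* rose and *MFNG* and *RFNG* were not called. *LFNG*, the Fringe enzyme that tunes the response of Notch to Jagged and Delta-like ligands, had a TPM of 7.21, 5.94 and 7.54 in the DKK1-SE+/+ and of 13.0, 10.3 and 12.3 in the DKK1-SE-/- replicates. All DKK1-SE-/- values were above all DKK1-SE+/+ values, with a log2 fold change of 0.94 (edgeR adjusted p = 0.000852) that was 0.61 with the offset. Of the 9 proteases and maturation factors, *NCSTN* rose and *ADAM10* and *FURIN* fell. *ADAM10*, the sheddase of ligand-bound Notch, had a TPM of 80.5, 75.2 and 67.9 in the DKK1-SE+/+ and of 32.7, 38.8 and 57.5 in the DKK1-SE-/- replicates. Its groups did not overlap, and DKK1-SE-/- replicate 3 was the nearest to the DKK1-SE+/+ range (log2 fold change -0.76, edgeR adjusted p = 0.00768, and -0.38 with the offset).

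In the nuclear complex, *KAT2A* and *CREBBP* rose and *MAML2* fell among 9 genes. Of the 12 corepressors, *TLE4* and *HDAC1* rose and *NCOR1* and *CIR1* fell. *TLE4*, a Groucho family corepressor, had a TPM of 3.63, 4.01 and 4.0 in the DKK1-SE+/+ and of 6.25, 5.71 and 7.62 in the DKK1-SE-/- replicates. It was higher in each DKK1-SE-/- library, with a log2 fold change of 0.96 (edgeR adjusted p = 0.000644). Among 7 genes of receptor trafficking and turnover, *DTX3L*, *DTX2* and *NUMBL* rose. Of the 8 further target genes tested, *HES2* rose, *CCND1* (-0.34) and *SOX9* (-0.39) fell, and *MYC*, *HES6*, *HES7*, *HEY2* and *HEYL* were not called. The called genes that are neither a DEG nor the gene with the smallest p-value of their role were named after their values were seen. Of these, *NCSTN* was called in 2, *HDAC1* in 3 and *NEURL1B* in 4 of the 16 alternatives. With the GC-content offset 23 of the 59 genes were again called, 13 as higher and 10 as lower, against 41.1% of all genes. Over all tested genes 1363 of the 5972 calls were lost with the offset and 1621 were gained. Among the 59 genes 5 calls were lost and 5 gained. *NCSTN* (0.17, edgeR adjusted p = 0.0595), *NUMBL* (0.28, 0.0659), *DTX2* (0.31, 0.0715), *CREBBP* (0.25, 0.094) and *CIR1* (-0.30, 0.125) lost the call. *ADAM17* (0.63, edgeR adjusted p = 0.000231), *ITCH* (0.63, 0.00064) and *NUMB* (0.24, 0.0156) gained it as higher, and *TLE1* (-0.20, 0.0489) and *DLL3* as lower. Over the alternatives the adjusted p ranged from 0.0218 to 0.363 for *NCSTN*, from 0.00381 to 0.419 for *NUMBL*, from 0.00165 to 0.187 for *DTX2*, from 0.00236 to 0.202 for *CREBBP* and from 0.00421 to 0.177 for *CIR1*, and it went up to 0.769 for *ADAM17*, 0.621 for *ITCH*, 0.997 for *NUMB* and 0.923 for *TLE1*.

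The genes around each Notch gene were also compared, as a description without a test. The 20 tested genes nearest to *JAG1* spanned 8.41 Mb and had a median log2 fold change of -0.16, of which 12 were negative, against -0.77 for *JAG1*, and with the GC-content offset their median was 0.06. Around *NOTCH1* the median was 0.30 with 1 of 20 negative, and around *NRARP*, on the same chromosome, it was 0.38. With the same offset both medians were near 0 (-0.01 and 0.00), as was that around *JAG2* (0.00, and 0.33 without the offset). Around *DLL1* the median was -0.42 with 16 of 20 negative, and it was -0.31 with the offset. Around *HEY1* it was 0.14, and 0.38 with the offset, below the value of *HEY1* in both fits. The medians around *NOTCH2* (-0.17, with 13 of 20 negative), *NOTCH3* (0.11), *HES1* (0.13) and *HES4* (0.17) were -0.06, -0.05, -0.01 and -0.10 with the offset. For the DEGs of the pathway list they were 0.72 around *DTX3L*, 0.02 around *DLL4*, 0.29 around *HES2* and -0.33 around *MAML2*. With the offset these 4 were 0.91, -0.08, 0.11 and -0.05. Around *LFNG*, *MIB1*, *ADAM10* and *TLE4* they were 0.57, -0.17, -0.38 and -0.41, and 0.30, 0.11, -0.08 and -0.17 with the offset. The part of such shared shifts in the changes of these genes was not tested.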

How the data were processed

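Total RNA of 3 DKK1-SE+/+ and 3 DKK1-SE-/- PANC-1 samples was sequenced. The authors deposited expected counts, which are not normalized (32.3% of nonzero values are not whole numbers), and the authors also deposited TPM, normalized within each library. The build is hg38 per the submitters' processing notes, and the aligner, the counting program and the annotation are not given in the sources used here. Columns of the authors' comparison (fold change, log2 fold change, p-value, adjusted p-value and significance call) were not used.

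Expected counts were rounded and tested with edgeR 4.0.16 in R 4.3.3 (filterByExpr by group with a minimum count of 10, TMM, glmQLFit and glmQLFTest, no covariate, Benjamini-Hochberg adjustment over 15179 genes). The standard error is the absolute log2 fold change divided by the square root of F. Alternatives were DESeq2 1.42.0, RLE factors, library size alone, no filter, a block for the replicate number, each library left out in turn, limma-trend 3.58.1 on log2(TPM + 1) or log2(TPM + 0.1), a linear fold limit of 1.2, and a GC-content offset per library (40 bins, a spline with 6 degrees of freedom). Positions and GC content (longest transcript) are from GENCODE version 44, in which 62625 of 62703 genes were placed. Motifs were searched on both strands of the 250 bases before each start in the RefSeq table. The fits were also run on simulated data with 200 changed genes, and no outcome of those runs is given here.

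The named genes are the 10 Notch genes, *DKK1*, paralogs of *NOTCH2*, overlapping genes, genes of the cell-type marker lists, picked after their values were seen, and, of the pathway list, each DEG and the gene with the smallest p-value in each role. Further genes of this list, namely the other called genes, *DLL3*, *MAML1*, *MAML3*, *RBPJ* and uncalled genes of some roles, were named after their values were seen. The members, the lists and the tests were chosen with earlier results of these data known.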

Additional observations from a re-analysis of the deposited data

How the results depend on the processing

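Over 16 alternatives for each of the 10 Notch genes (160 results), 129 kept their direction and their side of the threshold, 7 lost the call, 5 gained it in the same direction and 19 changed sign, 2 of these (*JAG2* and *NRARP* with the GC-content offset alone) with a call. *DKK1* was called in all, with log2 fold changes of -1.55 to -1.32. The number of called Notch genes, 3 against 39.3% of all genes, was 5 with the GC-content offset and the replicate block (36.4% of all genes), 7 with the offset alone (41.1%), 1 with limma on log2(TPM + 0.1) (27.2%), 1 with limma on log2(TPM + 1) without a filter (7.46%), and 2 to 4 when a library was left out (25.9% to 48.4%). Notch DEGs numbered 4 with the linear fold limit and 0 to 1 when a library was left out. Called pathway genes numbered 23 of 59, and 12 with limma on either TPM scale (27.2% and 27.4% of all genes), 6 with limma on log2(TPM + 1) without a filter (7.46%), and 12 to 31 when a library was left out, with the fewest and the most in the fits with 25.9% and 48.4% of all genes. Over the whole table, limma without a filter called 2320 genes. DEGs numbered 550 in that fit, 512 with limma on log2(TPM + 1), 2490 in edgeR without a filter and 7227 with the linear fold limit. The DEGs higher in DKK1-SE-/- cells, 57.3%, were 33.98% with limma on log2(TPM + 1), 36.4% with the same test without a filter, 44.1% with limma on log2(TPM + 0.1), 64.9% in edgeR without a filter and 49.5% without DKK1-SE-/- replicate 3. *JAG2* turned to -0.24 with the offset, with or without the block, to -0.19 with 0.1 added, to -0.18 on log2(TPM + 1) with or without a filter, and lay at -0.047 to 0.21 when a library was left out. *NRARP* was at -0.26 with the offset, with or without the block, -0.15 with 0.1 added, -0.14 on log2(TPM + 1) with or without a filter, -0.072 with library size alone, -0.0080 with DESeq2, -0.0079 with RLE factors, -0.014 in edgeR without a filter, and -0.099 to 0.075 when a library was left out. The cause was not tested. Same-numbered libraries had correlations of -0.12, -0.07 and -0.11 between their deviations from the group means, and no library correlated best with its own number. With the replicate block, 4981 genes, 3 Notch genes and 18 pathway genes were called. Counts were lowest for *DLL1* (8 to 28), *HEY1* (32 to 89) and *NOTCH3* (42 to 88).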
